A study of Mus musculus with 12 samples.

Results

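Protocadherins are cadherin-repeat adhesion proteins of the cell surface, and 71 of the 23983 gene entries measured in newborn mouse brain carry a protocadherin (Pcdh) symbol. They were picked by that symbol, with earlier results of the data already known. Of these, 59 belong to the alpha, beta and gamma gene clusters on chromosome 18 (15 alpha, 22 beta and 22 gamma entries), and 12 are non-clustered genes on chromosomes 3, 5, 10, 14, 18 and X. RNA came from the cortex and the subcortex at postnatal day 0, in 4 groups of 3 libraries. The vascular knockout groups (vKO) carried the Reck alleles flex2 and Δex1 with Tie2Cre, and the wild-type groups (WT) are labelled as wild type. Both genotypes are on a mixed strain background. Tie2-Cre is active in endothelial and blood lineages, so Cre does not act in most neural cells of the tissue. The labels state no sex and do not say whether tissue was pooled. The study asked how the tissue differs when vascular cells lack Reck, a membrane protein that works as a co-receptor for Wnt7 signals in brain endothelium.

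Each neuron switches on a few alpha, beta and gamma isoforms by choosing among alternative promoters, and the combination acts as a surface barcode: neurites with matching isoforms recognise each other, which underlies dendritic self-avoidance. Each alpha or gamma isoform has its own first exon, joined to constant exons that all members of its cluster share, whereas beta genes have no shared exon. The C-type isoforms at the ends of the alpha and gamma clusters are expressed more widely than the rest. The non-clustered protocadherins are separate genes, most of them of the delta-1 and delta-2 classes, which differ in their cytoplasmic tails and work in axon growth, neuronal sorting and synapses.

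Of the 9 non-clustered genes with a promoter window in the RefSeq table used (GRCm38.p6), 4 fell in vKO cortex by the results given further on, and the 250 bases before their starts are printed because these members were called. The starts are those of RefSeq. The gene spans given with the results are from GENCODE, which starts Pcdh15 far upstream, so that its window lies inside that span, and starts Pcdh7 within its window. They are written 5′ to 3′ on the gene's strand, and capitals mark CCAAT or its reverse complement ATTGG, the pentamer of the CCAAT box. The windows are chrX:133688994-133689243 on the minus strand for Pcdh19, chr10:73821617-73821866 on the plus strand for Pcdh15, chr14:84443313-84443562 on the plus strand for Pcdh17 and chr5:57717831-57718080 on the plus strand for Pcdh7.
Pcdh19: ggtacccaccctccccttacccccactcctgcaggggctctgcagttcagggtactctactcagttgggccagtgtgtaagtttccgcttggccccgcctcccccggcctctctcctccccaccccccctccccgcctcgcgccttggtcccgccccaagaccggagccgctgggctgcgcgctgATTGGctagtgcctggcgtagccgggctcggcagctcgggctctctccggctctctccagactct
Pcdh15: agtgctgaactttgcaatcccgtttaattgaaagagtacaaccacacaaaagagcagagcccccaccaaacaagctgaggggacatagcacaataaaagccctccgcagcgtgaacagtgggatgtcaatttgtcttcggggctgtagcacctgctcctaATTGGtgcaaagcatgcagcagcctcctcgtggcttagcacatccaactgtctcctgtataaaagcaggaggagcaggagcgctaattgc
Pcdh17: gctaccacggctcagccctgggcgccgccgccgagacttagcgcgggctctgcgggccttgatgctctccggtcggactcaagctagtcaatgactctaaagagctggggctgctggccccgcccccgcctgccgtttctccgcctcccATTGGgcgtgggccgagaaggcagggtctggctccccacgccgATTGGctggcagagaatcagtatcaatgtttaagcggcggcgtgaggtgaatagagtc
Pcdh7: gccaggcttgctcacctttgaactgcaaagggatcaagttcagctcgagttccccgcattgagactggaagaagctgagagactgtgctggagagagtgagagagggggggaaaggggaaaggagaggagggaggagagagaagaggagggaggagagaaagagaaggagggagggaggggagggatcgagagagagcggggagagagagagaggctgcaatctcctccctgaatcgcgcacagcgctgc
In windows of 300 bases that run 50 bases past the start, CCAAT was found on either strand in 8 of the 9 protocadherin genes, all but Pcdh7, against 37.4% of 32851 promoters of the same length. This motif was picked after the sequences had been seen. The GC box GGGCGG was found in 4 of the 9 genes against 35.7% of all promoters, and the TATA box TATAAA in Pcdh15 and Pcdh8 against 13.6%. The short core CCCTC of the CTCF motif was found in 7 of 9 against 66.0%, and CGCT, the core of the element conserved in clustered protocadherin promoters, in 9 of 9 against 61.8%. The letters of the last 2 motifs and of the GC box can overlap at their ends, and each match was counted for its own motif. The Pcdh17 window held 26 CpG dinucleotides, that of Pcdh19 18, that of Pcdh7 11 and that of Pcdh15 8, against a median of 7 over all promoters. A match is a description of the sequence, and no motif searched was found in all 4 genes that fell and in none of the other 5.

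Levels are FPKM, sequenced fragments scaled to transcript length and to library size, and the files give 1 value per gene and group. No SD can be given for any value, values of single libraries are not shown, and sequencing depth is not known. Ratios are log2((vKO FPKM + 1)/(WT FPKM + 1)), which understates changes of low genes, and a gene is called where the q-value of the authors' deposited table is under 0.05. Nothing says that the libraries of a group came from separate animals, so those q-values may measure technical spread. In whole tissue, fewer cells of a type and less RNA per cell cannot be told apart.

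In cortex, 5 protocadherin genes fell and 0 rose, all 5 of them among the 12 non-clustered genes, while 0 of the 56 tested clustered genes were called. Of 13594 tested genes, 19.5% were called in cortex, 8.15% higher and 11.3% lower. The share called lower among the 68 tested protocadherins was 7.35%. It says little about the clustered genes, whose test statistics were all smaller in size than that of any called gene, as given further on. The 5 of 12 non-clustered genes stood above the 11.3%, but calls of lower genes were more frequent among long transcripts, as given with the lengths further on. At an unadjusted p under 0.05 in the authors' deposited table, 8 protocadherins were lower and none was higher. In subcortex, 0 of 69 tested protocadherins were called, against 0.714% of 13735 tested genes (0.451% higher and 0.262% lower), and 1 had an unadjusted p under 0.05 in the authors' deposited table. Untested entries were Pcdha4 and Pcdhb1 in both tissues and Pcdha1 in cortex.

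The cortex ratio was below 0 in 67 of 68 tested protocadherins, against 49.6% of all tested genes and 85.5% of those with transcripts of at least 5000 bases. The exception was Pcdhb9, with 3.87 FPKM in vKO and 3.54 in WT, which is named after its value was seen. The median cortex ratio was -0.43 for the clustered genes and -0.30 for the non-clustered genes, against 0.00 over all tested genes. In subcortex the medians were 0.06 and -0.09, against -0.00 over all tested genes.

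**Figure D1:**
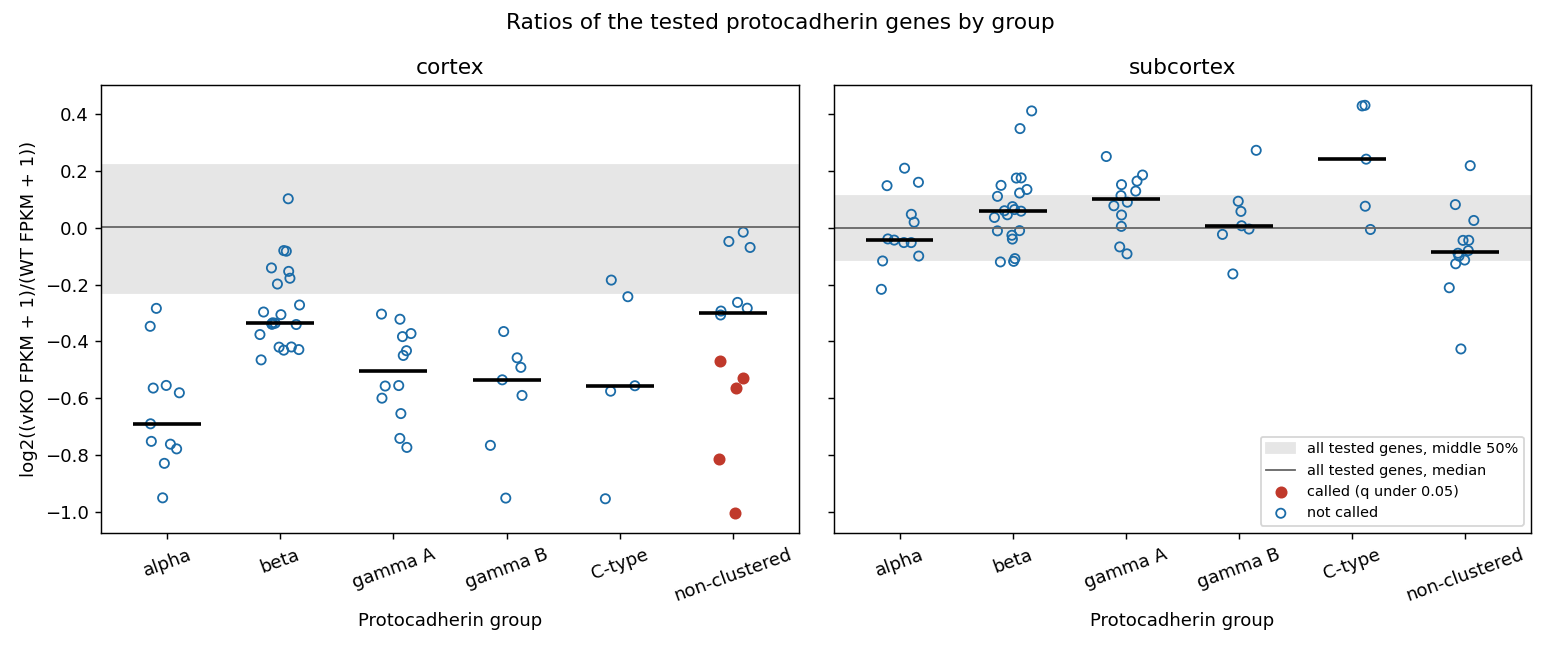
Ratio of each tested protocadherin gene by group in cortex and subcortex, with log2((vKO FPKM + 1)/(WT FPKM + 1)) on the vertical axis and C-type isoforms taken out of the alpha and gamma groups. Filled points are called genes, bars are group medians, and the grey band holds the middle 50% of all tested genes. All called points stand in the non-clustered column of cortex, and in cortex all but Pcdhb9 lie below 0.

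Among the delta-1 genes, Pcdh1 and Pcdh7 fell in cortex. Pcdh1 (chromosome 18, 38185914 to 38212053), an adhesion protein also of airway epithelium and vessels, had 8.02 FPKM in vKO cortex and 17.1 FPKM in WT cortex. Its ratio was -1.003, and the authors' deposited table lists it at q = 0.000806. In subcortex, Pcdh1 had 11.5 FPKM in vKO and 10.8 FPKM in WT.

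Pcdh7 (chromosome 5, 57717967 to 58133230), an adhesion protein whose tail binds the chromatin factor SET, had 24.8 FPKM in vKO cortex and 34.8 FPKM in WT cortex. The ratio was -0.47 at q = 0.0101 by the authors' deposited table, the highest q of the 5 called genes. In subcortex the values were 37.7 FPKM in vKO and 39.9 FPKM in WT. Subtracting the trend of all genes in length and GC content, as described further on, left Pcdh7 at -0.07 in cortex.

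The other delta-1 genes, Pcdh9 and Pcdh11x, were not called. Pcdh9, a neuronal gene of cortex and its projections, had 32.6 FPKM in vKO cortex and 40.2 FPKM in WT cortex, with a ratio of -0.29 at q = 0.139 by the authors' deposited table. It had 49.5 FPKM in vKO subcortex and 51.1 FPKM in WT subcortex. Pcdh11x, on the X chromosome, had 9.73 FPKM in vKO cortex and 12.1 FPKM in WT cortex (ratio -0.28, at q = 0.133 by the authors' deposited table). In subcortex it had 24.04 FPKM in vKO and 32.7 FPKM in WT, a ratio of -0.43, for which the authors' deposited table gives p = 0.0091 and q = 0.374. That ratio was the lowest of the 69 tested protocadherins in subcortex.

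Among the delta-2 genes, Pcdh19 and Pcdh17 fell in cortex. Pcdh19 (X chromosome, 133582860 to 133688987), in which human mutations cause an epilepsy of girls, had 8.73 FPKM in vKO cortex and 16.1 FPKM in WT cortex. The ratio was -0.81 at q = 0.000806 by the authors' deposited table. Its subcortex values were 17.29 FPKM in vKO and 16.97 FPKM in WT. Pcdh17 (chromosome 14, 84443563 to 84539002), which acts in axon extension and at synapses between cortex and basal ganglia, had 12.3 FPKM in vKO cortex and 18.7 FPKM in WT cortex. Its ratio was -0.56 at q = 0.00202 by the authors' deposited table. After subtraction of that trend its ratio was -0.16. Its subcortex level was 27.5 FPKM in vKO and 28.3 FPKM in WT.

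Pcdh10, Pcdh18 and Pcdh8 were not called in either tissue. Pcdh10, which guides striatal axons and recruits the WAVE complex, was the most abundant protocadherin of both tissues in WT. It had 38.0 FPKM in vKO cortex and 45.9 FPKM in WT cortex, at q = 0.224 by the authors' deposited table. Pcdh18, which binds the adaptor Dab1, had 8.13 FPKM in vKO cortex and 10.3 FPKM in WT cortex, at q = 0.104 by the authors' deposited table. Pcdh8, or arcadlin, which is induced by neuronal activity and controls N-cadherin uptake at synapses, had 23.0 FPKM in vKO cortex and 23.2 FPKM in WT cortex. It was the closest to equal of the 12 genes in cortex. In subcortex, Pcdh10 had 59.8 FPKM in vKO and 64.1 FPKM in WT, Pcdh18 had 13.3 FPKM in vKO and 14.6 FPKM in WT, and Pcdh8 had 19.3 FPKM in vKO and 16.4 FPKM in WT.

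Pcdh15, Pcdh12 and Pcdh20 belong to neither delta class in this ordering. Pcdh15 (chromosome 10, 73099342 to 74649737), which forms the tip links of inner ear hair cells, fell in cortex. It had 3.21 FPKM in vKO cortex and 5.08 FPKM in WT cortex, a ratio of -0.53 at q = 0.000806 by the authors' deposited table. Its cortex ratio was -0.25 after subtraction of the trend in length and GC content. In subcortex it had 7.03 FPKM in vKO and 7.54 FPKM in WT. Pcdh12, an endothelial protocadherin also known as VE-cadherin-2, had 1.66 FPKM in vKO cortex and 1.75 FPKM in WT cortex, and 1.08 FPKM in vKO subcortex and 1.25 FPKM in WT subcortex. It was the lowest of the non-clustered genes in each group and was not called. Pcdh20, which acts in the placement of layer IV neurons, had 6.35 FPKM in vKO cortex and 6.72 FPKM in WT cortex, and 3.996 FPKM in vKO subcortex and 4.78 FPKM in WT subcortex.

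**Figure D2:**
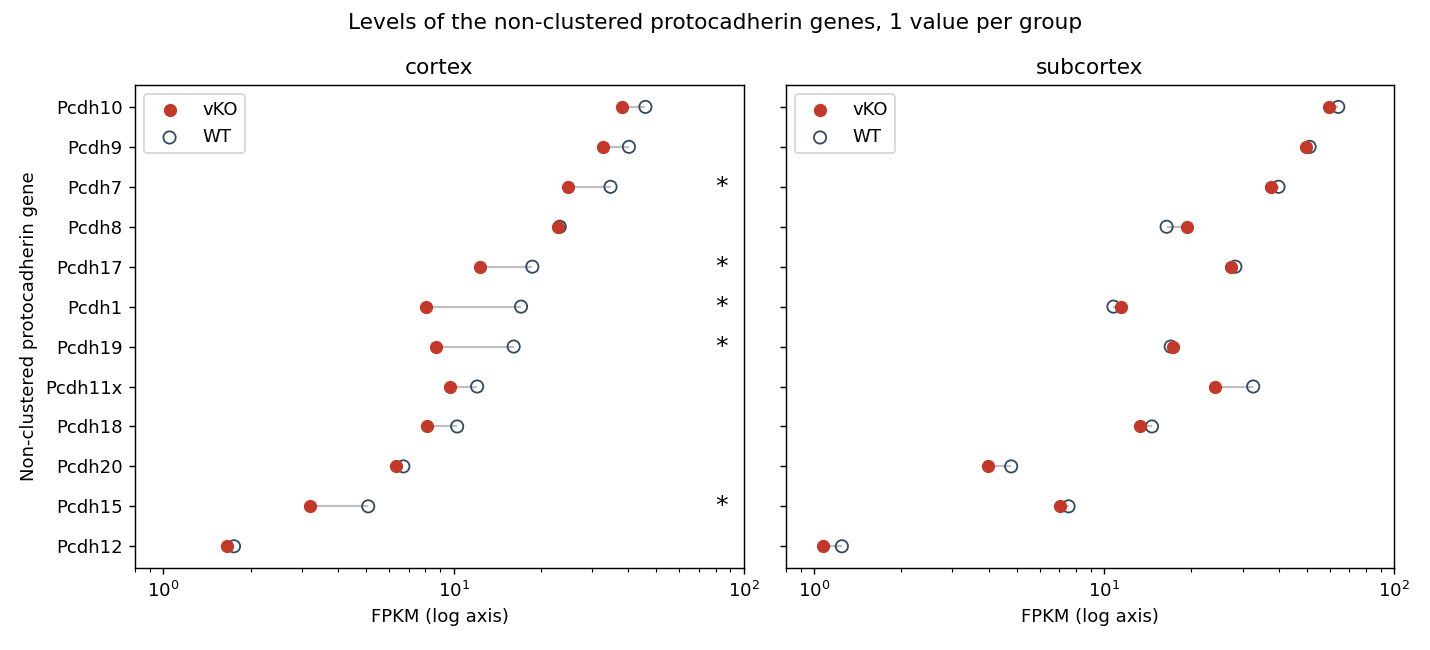
FPKM of the 12 non-clustered protocadherin genes on a log axis, vKO as filled and WT as open points, 1 value per group, in cortex and subcortex. An asterisk marks a q-value under 0.05 in the authors' deposited table. The 5 marked genes stand in cortex, where every vKO point lies left of its WT point, and in subcortex Pcdh11x shows the widest gap.

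Of the clustered genes, 25 of 56 had a vKO level at least 1.5-fold below WT in cortex and 0 had one at least 1.5-fold above. The shares were 9.68% and 6.25% over all tested genes, and 20.2% and 0.594% over those with transcripts of at least 5000 bases. In subcortex 0 of 57 clustered genes were that far below, and 1 was that far above. This was Pcdhb6, with 1.64 FPKM in vKO and 0.985 FPKM in WT (named after its value was seen). None of the clustered genes was called. Members of a cluster share exons or closely similar sequence, so reads shared between them make each member's own level uncertain, and the sum over a cluster is given as well. Summed over the 59 entries, the level was 238 FPKM in vKO cortex and 345 FPKM in WT cortex, and 268 FPKM in vKO subcortex and 244 FPKM in WT subcortex.

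The alpha cluster had the lowest cortex ratios of the clusters, with a median of -0.69 over 13 tested entries, and 10 of the 13 were at least 1.5-fold lower in vKO. It also had the longest transcripts of the clusters, with a median of 5341 bases. With the trend in length and GC content removed, as described further on, the alpha median was -0.47 over 11 entries. Its sum was 52.0 FPKM in vKO cortex and 84.3 FPKM in WT cortex, against 60.01 FPKM in vKO subcortex and 58.0 FPKM in WT subcortex. Pcdha9 had 5.63 FPKM in vKO cortex and 8.74 FPKM in WT cortex. Pcdha4-g, an alpha entry without a position in the annotation used, had 3.69 FPKM in vKO cortex and 8.06 FPKM in WT cortex. Its subcortex values were 6.39 FPKM in vKO and 6.29 FPKM in WT.

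The beta genes had the smallest cortex differences, with a median ratio of -0.33 over 21 tested entries, 3 of them at least 1.5-fold lower in vKO. Their median transcript length, 3714 bases, was the shortest of the clusters. With the trend in length and GC content removed, the beta median was -0.29, close to the -0.34 of the gamma cluster. Their sum was 59.8 FPKM in vKO cortex and 77.8 FPKM in WT cortex, and 74.2 FPKM in vKO subcortex and 71.3 FPKM in WT subcortex. Pcdhb17, the most abundant in WT of both tissues, had 6.64 FPKM in vKO cortex and 9.23 FPKM in WT cortex, and 7.30 FPKM in vKO subcortex and 8.01 FPKM in WT subcortex. In cortex, Pcdhb19 had 5.26 FPKM in vKO and 7.65 FPKM in WT, and Pcdhb22 had 5.27 FPKM in vKO and 6.70 FPKM in WT. In subcortex, Pcdhb20 had 6.60 FPKM in vKO and 6.22 FPKM in WT. Along the chromosome the beta levels were higher toward the gamma end: Spearman's rho of WT level with position was 0.795 in cortex and 0.697 in subcortex over 21 genes, which share their libraries and their neighbours.

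The gamma cluster had a median cortex ratio of -0.55 over 22 entries, with 12 at least 1.5-fold lower in vKO. Its A-type and B-type isoforms were alike in this, with medians of -0.50 and -0.54. The sum was 126 FPKM in vKO cortex and 183 FPKM in WT cortex, and 134 FPKM in vKO subcortex and 114 FPKM in WT subcortex. Pcdhga11, the most abundant A-type isoform, had 7.41 FPKM in vKO cortex and 12.2 FPKM in WT cortex, and 7.43 FPKM in vKO subcortex and 6.59 FPKM in WT subcortex. The lowest gamma ratio was that of Pcdhgb8, named after its value was seen and listed by GENCODE as a polymorphic pseudogene. It had 1.68 FPKM in vKO cortex and 4.19 FPKM in WT cortex.

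The 5 C-type isoforms stood apart from each other in cortex. Pcdhgc3, which promotes dendrite branching through Axin1, had 31.0 FPKM in vKO cortex and 35.4 FPKM in WT cortex, and was the third most abundant protocadherin of WT cortex. Pcdhgc4, needed for the survival of interneurons, had 10.99 FPKM in vKO cortex and 16.6 FPKM in WT cortex. Pcdhac2, needed for the tiling of serotonergic axons, had 11.2 FPKM in vKO cortex and 13.4 FPKM in WT cortex. Of the low ones, Pcdhac1 had 1.83 FPKM in vKO cortex and 4.49 FPKM in WT cortex, a ratio of -0.95 at p = 0.486 by the authors' deposited table, and Pcdhgc5 had 1.93 FPKM in vKO cortex and 3.36 FPKM in WT cortex. Both were chosen after their values were seen. Of the gamma sum, Pcdhgc3 made up 24.6% in vKO cortex and 19.4% in WT cortex, and of the alpha sum Pcdhac2 made up 21.6% in vKO cortex and 15.9% in WT cortex.

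In subcortex the C-type isoforms had the highest median ratio of the protocadherin groups, 0.24, with no call. Pcdhgc4 had 26.9 FPKM in vKO subcortex and 19.7 FPKM in WT subcortex, and Pcdhgc3 had 23.21 FPKM in vKO and 16.985 FPKM in WT. Pcdhac2 had 11.6 FPKM in vKO subcortex and 9.70 FPKM in WT subcortex. Pcdhac1 had 2.204 FPKM in vKO and 2.218 FPKM in WT, and Pcdhgc5 had 2.12 FPKM in vKO and 1.96 FPKM in WT.

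**Figure D3:**
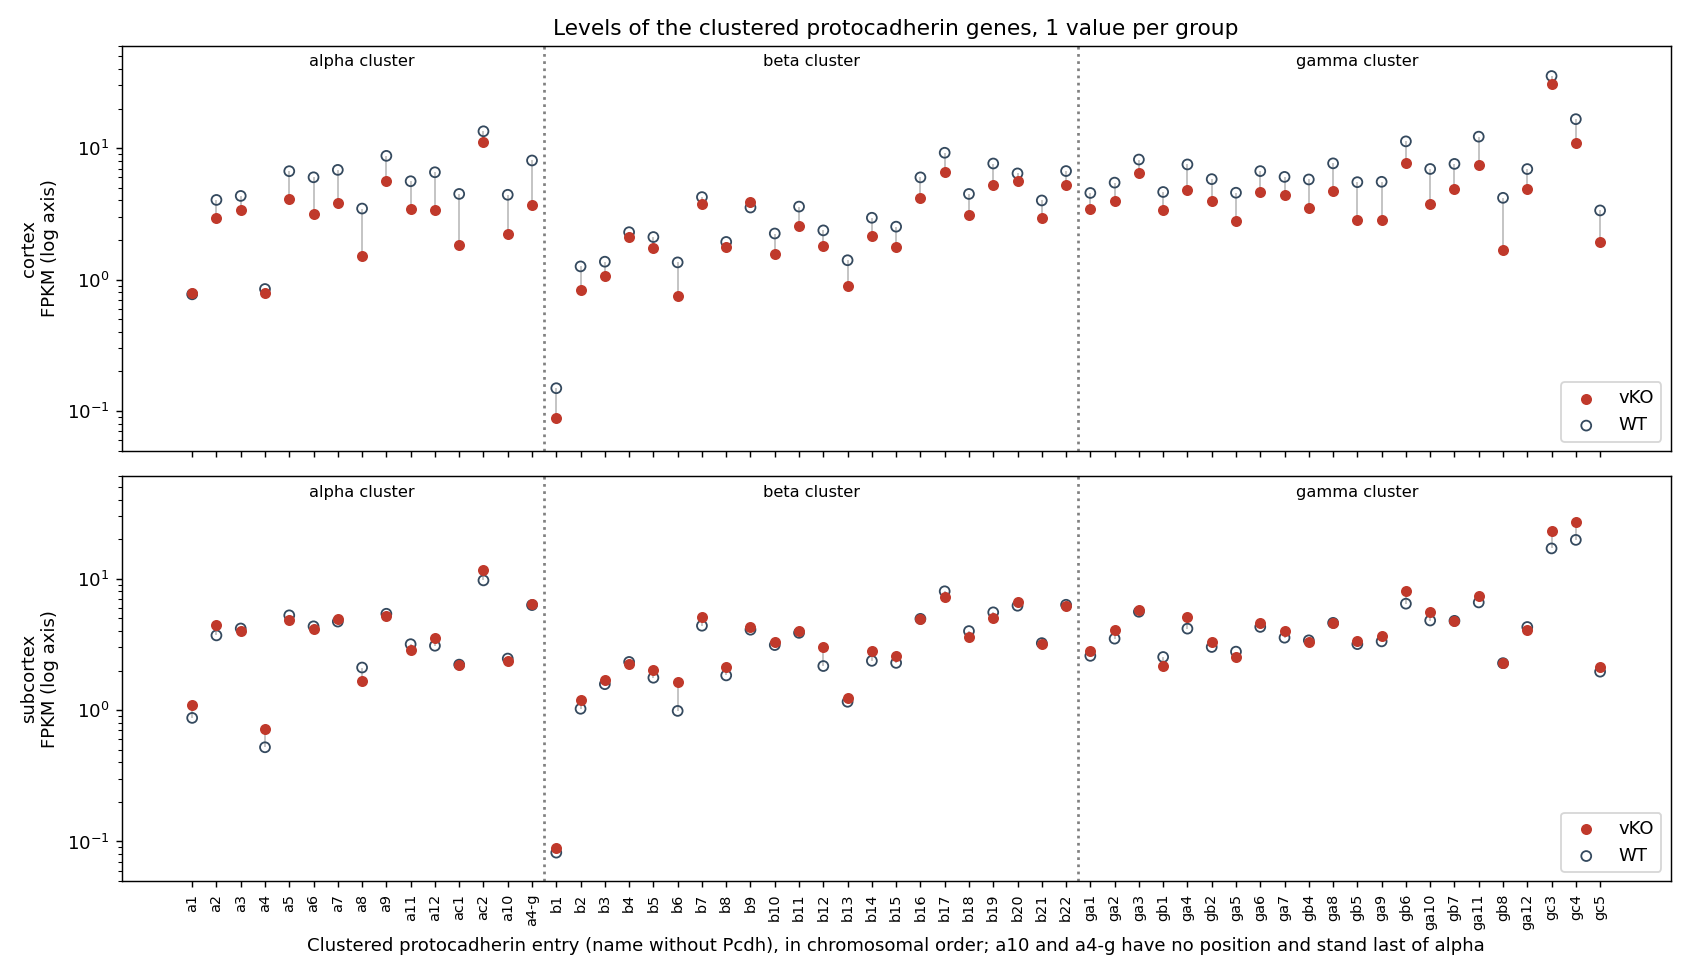
FPKM on a log axis of the 59 clustered entries in chromosomal order (Pcdha10 and Pcdha4-g, which have no position, stand last of alpha), vKO as filled and WT as open points, 1 value per group, for cortex above and subcortex below. In cortex the filled point lies below the open one for nearly all entries, and in subcortex the points mostly coincide, with Pcdhgc3 and Pcdhgc4 higher in vKO.

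The authors' test gave the clustered genes small statistics for the size of their ratios. All 59 carry one common position, chromosome 18 from 36930285 to 37841872 (mm10, counted from 1), a merged locus of 61 entries that also takes in Taf7 and Slc25a2. Dividing log2(vKO/WT) by the test statistic of the authors' deposited table gives the ratio that 1 unit of the statistic stood for. Its median over the clustered genes was 2.69 in cortex and 2.88 in subcortex, against 0.282 and 0.304 over all tested genes. In cortex 55 of 56 and in subcortex 57 of 57 clustered genes lay above the 95th percentile of all tested genes. For the non-clustered genes the median was 0.267 in cortex and 0.296 in subcortex. The largest statistic of a clustered gene in cortex was 0.435 in size, and the smallest of any called gene was 1.08. So Pcdhac1, at 0.408 of its WT level, was not called, while Pcdh1, at 0.470 of its WT level, was. That no clustered gene was called therefore does not show that their levels were equal.

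**Figure D4:**
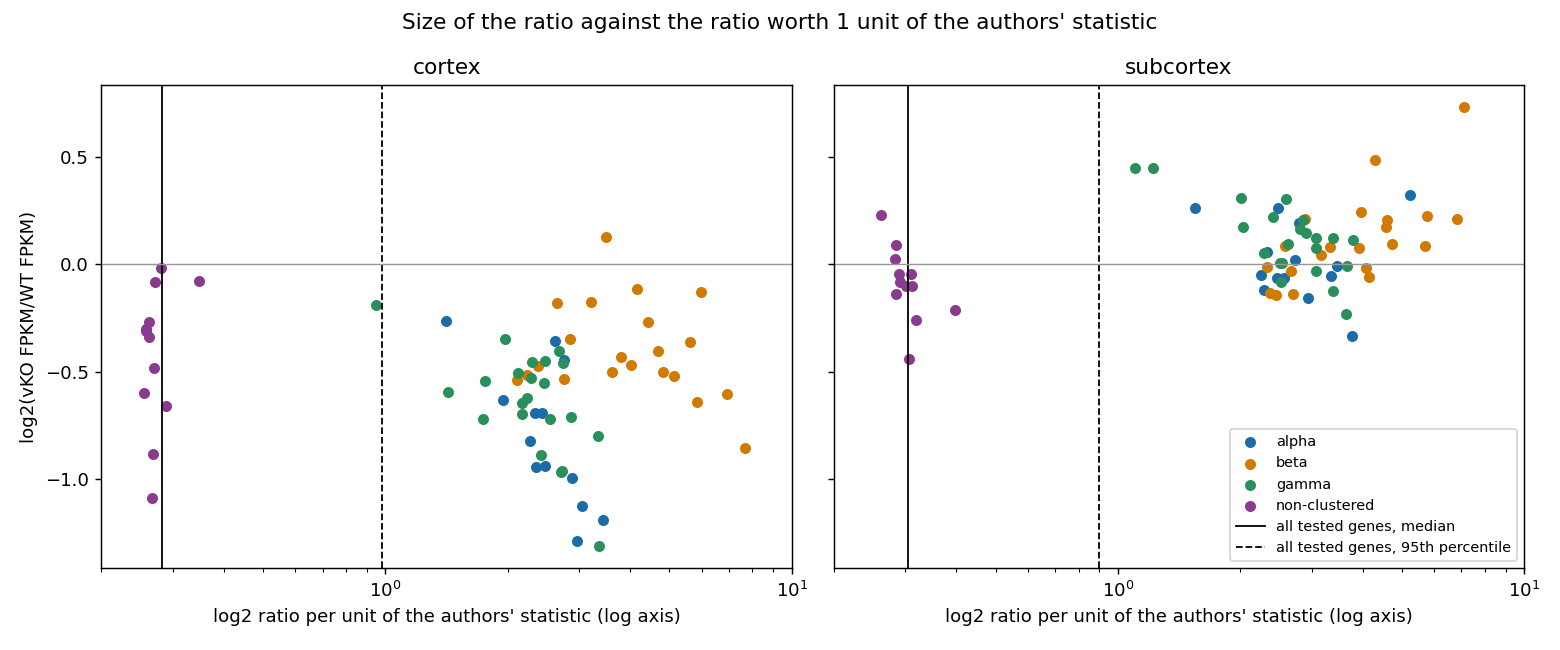
Ratio of each tested protocadherin, log2(vKO FPKM/WT FPKM), against the log2 ratio per unit of the statistic in the authors' deposited table (log axis), with lines at the median and the 95th percentile of all tested genes. The alpha, beta and gamma points lie right of the upper line apart from 1 in cortex, and the non-clustered points lie around the median.

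Taf7, a general transcription factor gene between the beta and gamma clusters, shares the merged locus and is named after its value was seen. It had 10.5 FPKM in vKO cortex and 7.86 FPKM in WT cortex, at p = 0.749 by the authors' deposited table. Its ratio of 0.38 lay on the other side of 0 from those of the clusters around it. In subcortex Taf7 had 8.70 FPKM in vKO and 9.20 FPKM in WT. Slc25a2, a mitochondrial carrier gene, had 1.16 FPKM in vKO cortex and 1.003 FPKM in WT cortex, and 0.899 FPKM in vKO subcortex and 1.13 FPKM in WT subcortex.

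Cortex ratios of all genes moved with transcript length, and protocadherin transcripts are long. Across 12935 tested genes with a length, Spearman's rho of ratio with length was -0.551 in cortex, and across 13067 genes it was 0.022 in subcortex, as a description across genes. Genes with transcripts of at least 5000 bases had a median cortex ratio of -0.26, and 32.9% of these 2862 genes were called lower. The median transcript length was 4723 bases for the clustered and 7378 bases for the non-clustered genes. With the median of genes of like length and GC content subtracted, the clustered median in cortex was -0.32, and 51 of 54 clustered genes with a length stayed below 0. The non-clustered median became -0.12, and 10 of the 12 stayed below 0. Of the called genes, Pcdh1 stood at -0.68 after this step, against -1.003 before it, and Pcdh19 at -0.43, against -0.81. Pcdh15 stood at -0.25, against -0.53, Pcdh17 at -0.16, against -0.56, and Pcdh7 at -0.07, against -0.47. Pcdh12 and Pcdh8 were at 0.19 and 0.14, and Pcdhgc3 and Pcdhac2 at 0.04 and 0.02. Of the 12 non-clustered genes 41.7% were called lower, and 6 of the 12 had transcripts in the longest decile of tested genes. In that decile 46.7% of 1293 genes were called lower and 91.8% had a ratio below 0, and 4 of the 6 non-clustered genes were called lower, Pcdh7, Pcdh15, Pcdh17 and Pcdh19. Pcdh1 was in the next longest decile, where 22.4% of genes were called lower. The largest share of clustered genes with a length, 26 of 54, was in the decile from 4359 to 5219 bases, where all 26 had a ratio below 0, against 70.0% of its genes. The part of length in these ratios was not tested beyond this subtraction.

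**Figure D5:**
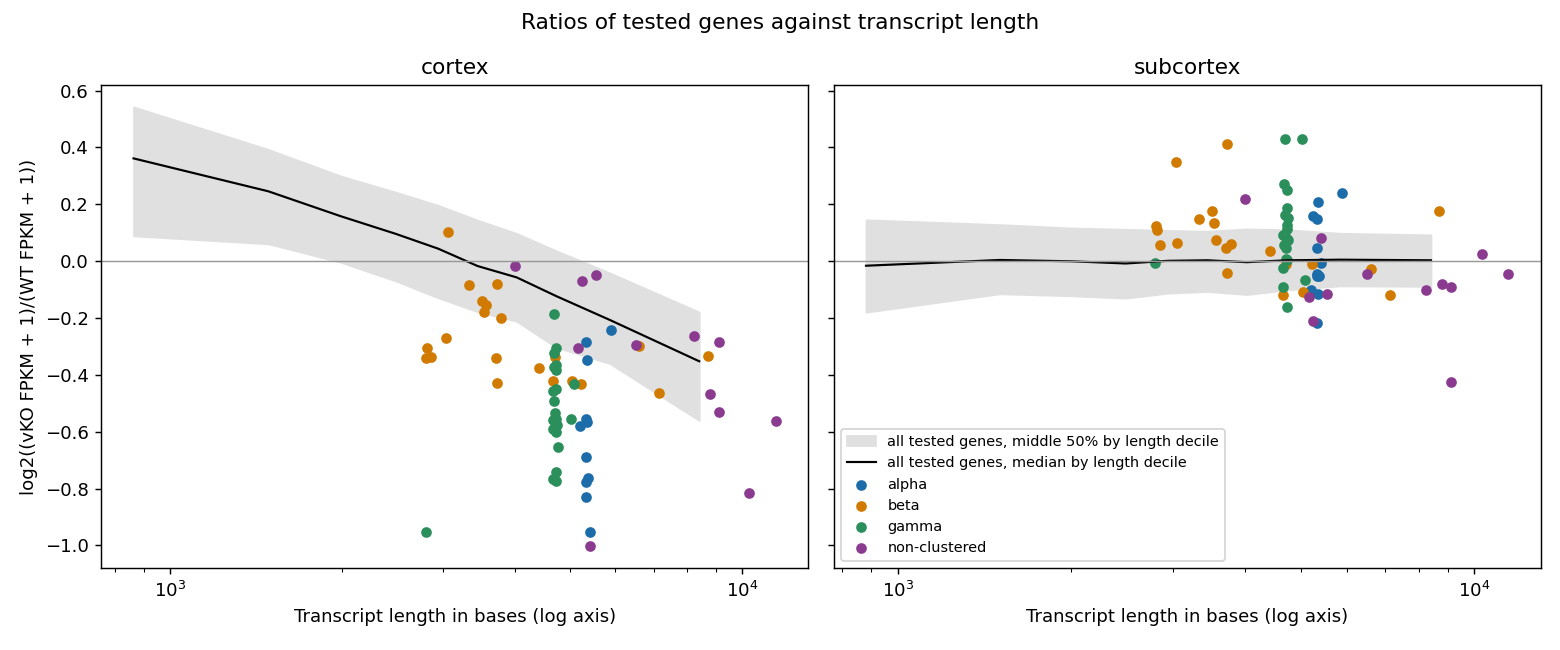
Ratio of each tested protocadherin, log2((vKO FPKM + 1)/(WT FPKM + 1)), against transcript length in bases (log axis), over the median and middle 50% of all tested genes by length decile. In cortex the line falls with length to a median of -0.35 in the longest decile, and most clustered points lie under it. In subcortex the line is flat.

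Of 56 clustered genes tested in both tissues, 35 (62.5%) were lower in vKO cortex and higher in vKO subcortex, against 23.6% of all 13167 genes tested in both and 44.4% of those with transcripts of at least 5000 bases. Subcortex ratios lay close to 0, with none called. A further 20 (35.7%) were lower in both, against 25.7% of all genes and 41.3% of those with transcripts of at least 5000 bases. Another 1 was higher in both and 0 were higher in cortex and lower in subcortex. Since 55 of the 56 were lower in cortex, both shares depend on the cortex ratios already given. Of the 12 non-clustered genes, 9 were lower in both, beside the same 25.7% of all genes and 41.3% of those with long transcripts. Pcdh1, Pcdh8 and Pcdh19 were lower in cortex and higher in subcortex, beside 23.6% and 44.4%. With 1 value per group, the difference between tissues could not be tested. Levels across the tables are set side by side with the reservation that they were normalised separately. In vKO, 17 of 59 clustered entries had a higher value in cortex than in subcortex, and in WT 51 of 59 did. The same counts over all genes were not computed, so these are not shown to be particular to protocadherins. Genes with transcripts of at least 5000 bases had a median ratio of -0.26 in cortex and 0.00 in subcortex. The order of levels among clustered genes was close in both WT tissues, with a Spearman's rho of 0.899 over 59 entries and of 0.968 among beta genes.

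The factors known for promoter choice and methylation at the clusters mostly had no call in cortex. Of 15 tested, 2 fell (13.3%, against 11.3% of all tested genes) and 0 rose, with a median ratio of -0.02. Their median transcript length was 5464 bases, and 32.9% of genes with transcripts of at least 5000 bases were called lower. With the trend in length and GC content removed, the median was 0.08 over 14 of them, and the lowest was -0.32. Wiz, which helps hold the chromatin loops that CTCF and cohesin form, had 7.33 FPKM in vKO cortex and 11.8 FPKM in WT cortex, at q = 0.000806 by the authors' deposited table. Dnmt3a, a de novo DNA methyltransferase, had 16.6 FPKM in vKO cortex and 26.02 FPKM in WT cortex, at the same q by the authors' deposited table. Ctcf, which binds the cluster promoters and enhancers, had 31.2 FPKM in vKO cortex and 31.5 FPKM in WT cortex. The cohesin subunit Rad21 had 47.6 FPKM in vKO cortex and 47.3 FPKM in WT cortex, and both are named after their values were seen. In subcortex 0 of 15 were called.

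Among 17 partners of protocadherins in the membrane and cytoplasm, 3 fell and 1 rose in cortex, in all 4 of 17, against 19.5% of all tested genes, with a median ratio of -0.12. The receptor kinase Ret had 0.593 FPKM in vKO cortex and 1.12 FPKM in WT cortex. Protein kinase C alpha (Prkca) had 9.08 FPKM in vKO cortex and 13.4 FPKM in WT cortex. The focal adhesion kinase relative Ptk2b, held in check by clustered protocadherins, had 6.21 FPKM in vKO cortex and 8.40 FPKM in WT cortex. The phosphatase Ppp1ca rose, with 163 FPKM in vKO cortex and 124 FPKM in WT cortex. Of the WAVE complex, through which Pcdh10, Pcdh17 and Pcdh19 reach actin, 10 genes were tested in cortex. Of these 3 fell and 1 rose, against 11.3% called lower and 8.15% called higher over all tested genes. In cortex Wasf1 (16.0 FPKM in vKO, 31.5 in WT), Cyfip2 (27.9 in vKO, 40.1 in WT) and Wasf2 (2.50 in vKO, 3.62 in WT) fell. Nckap1l, a form known from blood cells, rose with 1.68 FPKM in vKO cortex and 0.885 FPKM in WT cortex. In subcortex 0 of 16 partners and 0 of 10 WAVE genes were called.

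Other cadherins were taken for comparison. Of 15 classical cadherins tested in cortex 1 fell and 0 rose, against 11.3% called lower and 8.15% called higher over all tested genes. The gene that fell was Cdh24, with 4.41 FPKM in vKO and 6.95 FPKM in WT, and the list's median ratio was -0.09. Of 10 large cadherins (Fat, Dachsous, Celsr and calsyntenins) 7 fell and 0 rose, against 46.7% called lower in the longest decile of transcripts (the list's median length was 10879 bases), with a median of -0.63, which became -0.21 without the trend in length and GC content. Celsr2, a planar polarity cadherin, had 9.35 FPKM in vKO cortex and 20.6 FPKM in WT cortex, and its relative Celsr3 had 13.1 FPKM in vKO and 25.1 FPKM in WT. Fat1 had 12.8 FPKM in vKO cortex and 23.2 FPKM in WT cortex, and Dchs1 had 20.2 FPKM in vKO and 34.5 FPKM in WT. In subcortex 1 of 17 classical cadherins rose, against 0.451% of all tested genes called higher. This was the endothelial Cdh5, with 6.45 FPKM in vKO subcortex and 3.62 FPKM in WT subcortex. Of the large cadherins 0 of 11 were called in subcortex, with a median of 0.23.

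Some markers of cell types moved in cortex beside the protocadherins, and their part in the protocadherin ratios was not tested. Over all tested genes in cortex, 11.3% were called lower and 8.15% higher, 19.5% in all. The pan-neuronal count of 1 of 10 lower and the glial and progenitor count of 2 of 10 called stood near such shares. Of 10 pan-neuronal markers 1 fell and 0 rose, Dcx, with 98.7 FPKM in vKO cortex and 157 FPKM in WT cortex, and the median ratio was -0.05, with a sum of 2438 FPKM in vKO and 2297 FPKM in WT. Most of that sum was Tubb3, with 1377 FPKM in vKO and 1206 FPKM in WT, named after its value was seen. The ratio was below 0 in 5 of the 10, so the sum does not stand for the list. Of 10 inhibitory neuron markers 4 fell (Lhx6, Gad2, Gad1 and Slc32a1), with a median ratio of -0.26. With the trend in length and GC content removed, the median of these markers was -0.36 and all 10 were below 0. Their summed level was 331 FPKM in vKO and 358 FPKM in WT, and without Npy and Sst, the most abundant (named after their values were seen), 108 FPKM in vKO and 146 FPKM in WT. Of 12 endothelial markers 6 fell and 1 rose, with Slc38a5, Slco1c1 and Kdr lower and Emcn higher, and a sum of 78.3 FPKM in vKO and 118 FPKM in WT. The largest part of that sum was Cldn5, with 24.6 FPKM in vKO and 46.8 FPKM in WT, named after its value was seen. The endothelial median ratio was -0.36, and -0.10 with the trend in length and GC content removed, where 7 were below 0 and 5 above. Of 9 microglial and blood markers 6 rose, among them Lyz2, Alas2, Tyrobp and C1qb, with a sum of 785 FPKM in vKO and 102 FPKM in WT. Without the alpha globin entry Hba-a1,Hba-a2, which was not called and is named after its value was seen, the sums were 172 FPKM in vKO and 45.8 FPKM in WT. Of 10 mural and meningeal markers 3 rose and 2 fell, of 10 glial and progenitor markers 2 rose (Vim and Fabp7), and of 6 tested choroid plexus markers 0 were called. In subcortex, where 0.714% of all tested genes were called, Slco1c1 and Slc38a5 fell. Pecam1, Cdh5, Pdgfrb, Lyz2 and the choroid gene Slc4a5 rose in subcortex. None of the neuronal, inhibitory or glial markers was called there. Cdh5 stands in both the endothelial and the classical cadherin lists, Cdh2 in the partner and classical cadherin lists, and Otx2 in the choroid and subcortical lists.

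The tissue labels were met by most of their markers, but not by all. In cortex all 10 cortical markers were tested, and in subcortex 5 of them were too low for the test. Subcortical markers showed the reverse, with 10 of 10 tested in subcortex and 6 in cortex. However, the subcortical marker Isl1 had 9.53 FPKM in WT cortex and 4.87 FPKM in WT subcortex. The cortical marker Cux1 had 41.7 FPKM in WT cortex and 41.3 FPKM in WT subcortex. Isl1 and Cux1 are named after their values were seen, and the tissues were normalised separately. Of the subcortical markers, Tcf7l2, Foxp2 and Lhx9 fell in cortex, Tcf7l2 with 1.07 FPKM in vKO and 4.71 FPKM in WT. Of the cortical markers, Bcl11b fell in cortex, with 26.5 FPKM in vKO and 40.7 FPKM in WT, and Neurod6 rose, with 168 FPKM in vKO and 98.3 FPKM in WT. Reck itself had 3.23 FPKM in vKO cortex and 2.91 FPKM in WT cortex, and 3.49 FPKM in vKO subcortex and 2.37 FPKM in WT subcortex, without a call. Since the FPKM covers the whole gene and all cells of the tissue, it is no check of the genotype.

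The genotypes also differed in sex-linked transcripts in both tissues. A difference in sex cannot be told apart from genotype in any ratio given here, including those of the X-linked members Pcdh19 and Pcdh11x. Xist, the transcript of the inactive X, had 18.6 FPKM in vKO cortex and 0.0417 FPKM in WT cortex, and 10.2 FPKM in vKO subcortex and 0.0369 FPKM in WT subcortex. Of 4 Y-linked genes, 3 fell in cortex and 2 in subcortex, Eif2s3y with 15.8 FPKM in vKO cortex and 30.4 FPKM in WT cortex. The part of sex in the ratios of Pcdh19, Pcdh11x and the other members was not tested.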

How the data were processed

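Total RNA of whole cortex and subcortex was sequenced with a stranded TruSeq total RNA kit in 12 libraries, per the labels' protocols. Per the submitters' processing notes, HISAT2 2.0.1, Cufflinks 2.2.1, Cuffdiff and the mm10 build were used. The order of the steps and the annotation are not given in the sources used here. The deposited files are 2 tables of 23983 entries, each with 1 FPKM value per group, made by the authors from the 3 libraries of a group. The authors' test statistic (a score), p-value and q-value are used as deposited. A Benjamini-Hochberg adjustment of these p-values over tested entries gave the same q-values within 5.2e-07. Column letters W and M were read as WT and vKO, since the labels hold only these genotypes.

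From these, log2((vKO FPKM + 1)/(WT FPKM + 1)) was computed with Python 3.11.15, pandas 2.3.3 and numpy 2.4.6, for entries marked as tested. The lowest p-value of the authors' deposited table is 5e-05. Transcript length and GC content came from GENCODE M21 (longest protein-coding transcript), which matched 69 of the 71 entries by symbol. The trend with them was removed as the median ratio of 100 cells of 10 length by 10 GC classes, a step tested on simulated data. Promoters came from RefSeq (GRCm38.p6). The members and the 15 lists of other genes were chosen with earlier results of these data known. Named are all non-clustered genes, all called protocadherins, the 3 highest in WT of each tissue and family, and up to 4 called members per list with the lowest q. Genes named outside this rule are marked as chosen after their values were seen. With no value per library, neither an SD nor a test over samples or a leave-one-out could be computed, and depth is unknown. Alternatives were other pseudocounts, a minimum FPKM of 1, stricter calls and trend removal. Some marker genes are not reported here.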

Additional observations from a re-analysis of the deposited data

How the results depend on the processing

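No paired analysis was possible because the tables hold 1 value per group. For the same reason leaving out a library and limma were not run. The 5 cortex calls were 5 with a minimum FPKM of 1, with entries naming several genes left out, or where the ratio had to keep its sign without the trend in length and GC content. The minimum FPKM and the exclusion of such entries left all 68 tested protocadherins in, so they say little about the count. The cortex calls were 4, without Pcdh7, at a q under 0.01 in the authors' deposited table or with a further minimum of 1.5-fold. The subcortex count was 0 under each of these, and a count of 0 can only stay at 0 under stricter calls. The clustered median in cortex, -0.43, was -0.53 with a pseudocount of 0.1, -0.47 with 0.5, -0.32 with the trend removed, and -0.42 with untested members included, an alternative chosen after seeing the data. The non-clustered median in cortex, -0.30, was -0.32, -0.31 and, with the trend removed, -0.12. In subcortex the clustered median of 0.058 was 0.077, 0.066 and 0.063, and the non-clustered median of -0.085 was -0.092, -0.089 and -0.068 in the same order. The cause of these shifts beyond the alternatives' own construction was not tested. With the trend removed, 4 of 21 named protocadherins in cortex changed sign (Pcdh12, Pcdh8, Pcdhac2 and Pcdhgc3), none of them called, and 1 of 21 in subcortex did, Pcdh1 at -0.01. With either pseudocount 0 of 22 changed sign in each tissue. No result listed here turned its direction otherwise.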
